A study of Brassica napus with 15 samples.

Results

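Rapeseed genes whose RNA was abundant only in the youngest seedlings were followed in winter oilseed rape (Brassica napus). The genes were chosen by their measured levels: in all 3 accessions studied (C129, C033, C032) a gene had to reach at least 50 TPM (a transcript level set against gene length and library total) at 72 hours after imbibition (hai) and at least 16 times its level at each of 0, 2, 12 and 36 hai. The rule was met by 9 of 101040 coding genes of the table, and by 0 of 4236 non-coding genes. They are called the late genes of the seedling below. Levels at 72 hai and their ratios to earlier times chose these genes, so they are given as a description without a test.

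RNA came from 15 libraries, 1 for each accession at 0 (dry seed), 2, 12, 36 and 72 hai, all of seeds germinated on water at 20 °C in darkness according to the labels. The study compared accessions that germinate at different speeds, C129 being the fastest and C032 the slowest of these 3. It describes 72 hai as the green seedling, whereas the labels call all samples seeds. Each library pooled 3 biological replicates of 30 seeds, which leaves no error within an accession at 1 time, and times were compared with the accessions as replicates. Coding genes held between 19.4 M and 41.7 M read equivalents per library, computed from the deposited coverage, with a median of 27.5 M. The labels name no batch.

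A dry rapeseed carries stored RNA and oil, on which the embryo lives while it takes up water. Once the radicle has broken the seed coat, the seedling begins to build the leaf-like cotyledons and the root into organs that feed it, with chloroplasts, water transport and new cell walls, and the RNA of the seed programme disappears. Many genes of that last phase are silent or nearly silent in the seed. B. napus carries the A genome of Brassica rapa and the C genome of Brassica oleracea, so that most genes exist in at least one copy in each.

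Markers of this transition followed the labels. PSAN and LHCB3 encode a subunit of photosystem I and a light-harvesting protein of photosystem II. BnaC03g50210D, the match of Arabidopsis PSAN, was listed at 0 in all 3 dry seeds and stood at 1.80, 0.581 and 0.354 TPM at 36 hai and at 24.4, 21.4 and 19.6 TPM at 72 hai in C129, C033 and C032. Of the matches of LHCB3, BnaC09g30700D stood at 0.425, 1.77 and 0.582 TPM in dry seeds in the same order. It stood at 0.792, 0.230 and 0.229 TPM at 36 hai, lower than in dry seeds in C033 and C032, and at 10.5, 24.8 and 6.45 TPM at 72 hai. A second match of LHCB3 reached at most 1.63 TPM at 72 hai. Oleosins coat the oil bodies of the seed, and BnaA07g14960D, a match of an Arabidopsis oleosin gene, went from 50.7, 40.9 and 43.7 TPM in dry seeds to at most 0.497 TPM at 72 hai.

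A late, near-complete switch of this kind was rare. Of the 1925 coding genes with at least 50 TPM at 72 hai in all 3 accessions, 409 stood at least 16 times above 0 hai and 288 above 12 hai in every accession, but only 10 stood that far above 36 hai. A total of 263 genes (13.7%) cleared 0, 2 and 12 hai together, and 9 (0.468%) also cleared 36 hai. Most of the 263 genes had thus reached a sizeable part of their seedling level by 36 hai. In C129 their median ratio of TPM at 72 over 36 hai was 2.71, with 4.37 for C033 and 5.53 for C032, and 19, 10 and 7 of them were higher at 36 than at 72 hai. Without the minimum level, 1182 genes above 0 at 72 hai met the ratios, of which 420 reached 1 TPM and 74 reached 10 TPM in all accessions.

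**Figure D1:**
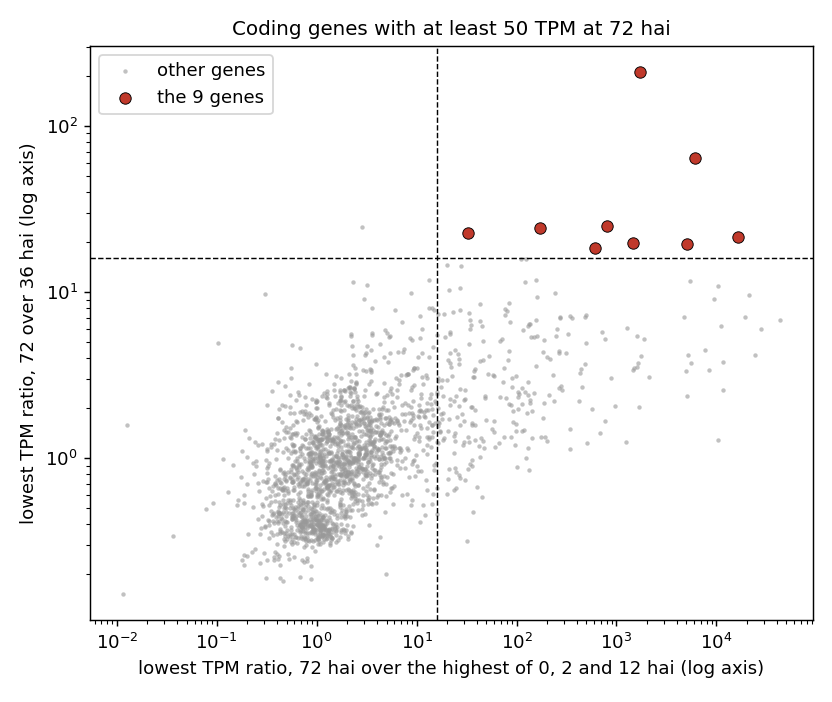
Each point is 1 of 1925 coding genes with at least 50 TPM at 72 hai in all 3 accessions, with the lowest ratio over the accessions of TPM at 72 hai to the highest of 0, 2 and 12 hai (x, log axis) and to 36 hai (y, log axis). Values under 0.01 TPM were set to 0.01 for the ratio, and dashed lines mark 16. The 9 late genes fill the upper right alone, while 254 other genes clear the vertical line only.

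The genes lie on 9 different sequences of the assembly of Chalhoub et al., to which the reads were mapped. BnaCnng51700D (GSBRNA2T00054681001) lies on sequence LK035371, plus strand, from 9533 to 10618, and its name places it in the C genome without a chromosome. BnaC06g33470D (GSBRNA2T00103319001) lies on LK031797, plus strand, from 1053456 to 1054112, and BnaC05g50540D (GSBRNA2T00083618001) on LK032657, minus strand, from 26295 to 29349. The other 6 belong to the A genome. BnaA01g28080D (GSBRNA2T00010069001) lies on LK032103, plus strand, from 667759 to 669703, BnaA02g32350D (GSBRNA2T00120366001) on LK031962, minus strand, from 218001 to 219379, and BnaA03g17000D (GSBRNA2T00086080001) on LK032684, minus strand, from 89729 to 91466. BnaA03g48610D (GSBRNA2T00044275001) lies on LK032245, plus strand, from 14865 to 18505, BnaA08g04230D (GSBRNA2T00095040001) on LK032069, minus strand, from 677170 to 682041, and BnaA09g08470D (GSBRNA2T00063713001) on LK032395, plus strand, from 192680 to 195372. No name, product or Arabidopsis match was at hand for any of the 9, so their functions are not described here.

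The RNA of these genes amounted to very little in seeds and was plentiful in seedlings. Summed over the 9 genes, C129 held 2.48, 3.62 and 1.5 TPM at 0, 2 and 12 hai, 60.5 TPM at 36 hai and 1444 TPM at 72 hai. C033 held 2.82, 2.32 and 1.90 TPM, then 24.8 and 1030 TPM. C032 held 1.79, 1.77 and 2.09 TPM, then 16.8 and 868 TPM. At 72 hai the 9 genes made up 0.164%, 0.126% and 0.0967% of coding TPM in C129, C033 and C032, and by mean TPM they ranked between the 316th and the 2265th of all coding genes.

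The switch was not confined to 72 hai. Of 81 values at 0, 2 and 12 hai, 56 were listed at 0, against 2 of 27 at 36 hai. All 9 genes were above 0 at 36 hai in C129 and C032 and 7 of 9 in C033, and 8, 7 and 5 of them reached 1 TPM in C129, C033 and C032. Their levels at 36 hai were between 0 and 5.47% of those at 72 hai. In RNA of whole seeds and seedlings, fewer cells that use a gene and less RNA per cell cannot be told apart.

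**Figure D2:**
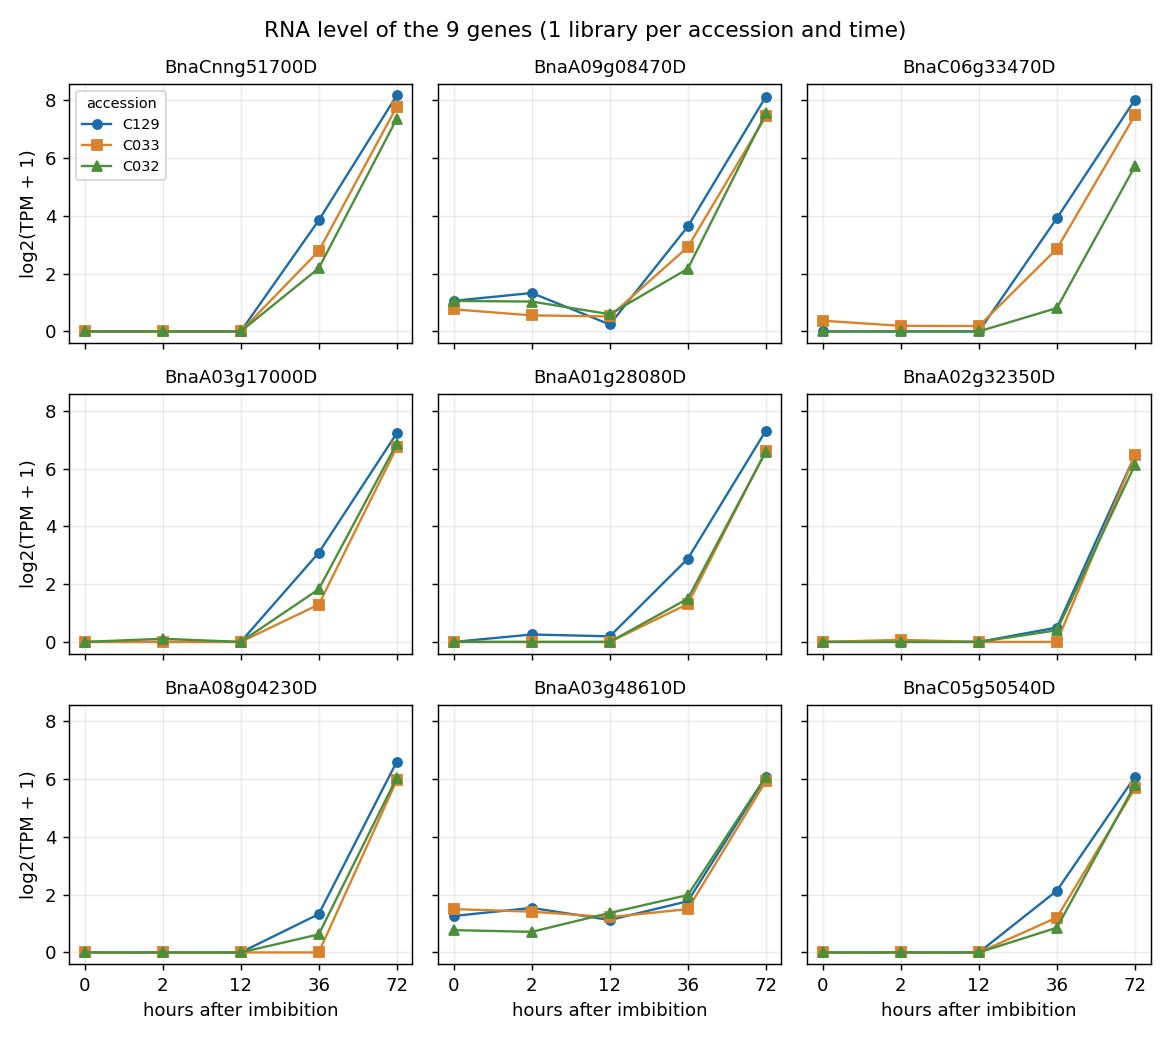
Each panel shows 1 of the 9 late genes, with log2(TPM + 1) on the y axis and hours after imbibition, equally spaced, on the x axis, and 1 line for each accession with 1 library per point. All lines lie near the floor to 12 hai and peak at 72 hai, and BnaA09g08470D and BnaA03g48610D start from a low level above 0 in dry seeds.

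BnaCnng51700D and BnaC05g50540D were listed at 0 in all 9 libraries from 0 to 12 hai and above 0 in all 3 at 36 hai. BnaCnng51700D, with 2 exons and 761 bases, was the most abundant late gene. It stood at 13.4 TPM in C129, 5.88 in C033 and 3.55 in C032 at 36 hai and at 287, 218 and 163 TPM at 72 hai, a mean of 223 ± 61.8 TPM (SD, n = 3 accessions). C129 was highest and C032 lowest at both times. Its level at 72 hai was 21.5, 37.1 and 46.0 times that at 36 hai in C129, C033 and C032.

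BnaC05g50540D, with 6 exons and 1413 bases, was the least abundant. It stood at 3.40, 1.31 and 0.811 TPM at 36 hai and at 66.4, 50.3 and 54.8 TPM at 72 hai in C129, C033 and C032, a mean of 57.2 ± 8.33 TPM (SD, n = 3). It stood closest to the limit of the rule, through the 50.3 TPM of C033. A count of 0 allows up to 3 reads, which for these genes corresponds to between 0.0502 and 0.111 TPM in BnaC05g50540D and between 0.0932 and 0.207 TPM in BnaCnng51700D, depending on the library. These limits cover counting error only.

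BnaC06g33470D, BnaA03g17000D and BnaA01g28080D were seen before 36 hai in 1 accession each, at no more than 0.291 TPM. BnaC06g33470D, a gene of 1 exon and 657 bases, stood at 0.291, 0.144 and 0.137 TPM in C033 at 0, 2 and 12 hai, which corresponds to between 2 and 3.99 reads, and was listed at 0 in C129 and C032. At 36 hai it stood at 14.1 TPM in C129, 6.26 in C033 and 0.752 in C032. At 72 hai it stood at 258, 177 and 51.5 TPM. This was the widest spread of the 9 genes at 72 hai, 5.02-fold between C129 and C032, with a mean of 162 ± 104 TPM (SD, n = 3). C032 passed the minimum of the rule narrowly.

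BnaA03g17000D, with 5 exons, was listed at 0 in 8 of 9 libraries before 36 hai, the exception being C032 at 2 hai with 0.0791 TPM (2 reads). It stood at 7.49, 1.45 and 2.54 TPM at 36 hai and at 148, 106 and 116 TPM at 72 hai in C129, C033 and C032. BnaA01g28080D, with 3 exons, appeared early only in C129, at 0.196 TPM at 2 hai and 0.143 TPM at 12 hai. It stood at 6.37, 1.49 and 1.82 TPM at 36 hai and at 158, 97.2 and 94.9 TPM at 72 hai. In both genes C129 stood above the other accessions at 36 and 72 hai, by more at 36 hai: C129 exceeded C033 5.16-fold in BnaA03g17000D and 4.29-fold in BnaA01g28080D at 36 hai, and 1.41-fold and 1.62-fold at 72 hai.

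BnaA02g32350D and BnaA08g04230D came closest to a switch after 36 hai. BnaA02g32350D, with 3 exons and 926 bases, was seen before 36 hai only in C033 at 2 hai, at 0.0511 TPM. At 36 hai it stood at 0.412 TPM in C129 and 0.322 TPM in C032, which corresponds to 11.4 and 7.15 reads, and was listed at 0 in C033. At 72 hai it stood at 86.9, 87.0 and 68.9 TPM in C129, C033 and C032, or 211 times its level at 36 hai in C129 and 214 times in C032. These were the highest ratios among the late genes in both accessions.

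BnaA08g04230D, with 6 exons and 1742 bases, was listed at 0 in all libraries to 12 hai. It stood at 1.51 TPM in C129 and 0.542 TPM in C032 at 36 hai and was listed at 0 in C033, and a listing at 0 allows at most 0.0902 TPM in any of its libraries. At 72 hai it stood at 96.3, 61.2 and 65.4 TPM in C129, C033 and C032, 63.9 times the level at 36 hai in C129 and 121 times in C032. For both genes C033 has no ratio of 72 to 36 hai, since it was listed at 0.

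BnaA09g08470D and BnaA03g48610D were above 0 in all 15 libraries. BnaA09g08470D, with 12 exons the most divided of the 9 genes, stood at 1.08, 0.699 and 1.08 TPM in dry seeds of C129, C033 and C032, at 1.51, 0.468 and 1.05 TPM at 2 hai and at 0.180, 0.433 and 0.510 TPM at 12 hai. It stood at 11.4, 6.58 and 3.50 TPM at 36 hai and at 278, 173 and 186 TPM at 72 hai, a mean of 212 ± 57.1 TPM (SD, n = 3). All 3 accessions were lower at 12 hai than in dry seeds.

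BnaA03g48610D, with 5 exons and 2163 bases the longest transcript, had the smallest log2 difference from 36 to 72 hai, 4.27. It stood at 1.40, 1.83 and 0.708 TPM at 0 hai in C129, C033 and C032, at 1.91, 1.66 and 0.640 TPM at 2 hai and at 1.18, 1.33 and 1.58 TPM at 12 hai. At 36 hai it stood at 2.42, 1.83 and 2.97 TPM. At 72 hai its levels of 65.7, 59.8 and 67.1 TPM were the most alike among the late genes, with a mean of 64.2 ± 3.86 TPM (SD, n = 3). In C033 the highest earlier level was that of the dry seed, 1.832 TPM, against 1.828 TPM at 36 hai.

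The next question was whether these genes began to rise between 12 and 36 hai, an interval in which radicles break the seed coat. The rule caps both levels at a sixteenth of the level at 72 hai. It does not set the direction between them, but a gene near 0 at 12 hai could not fall far enough to be called. At 12 hai only BnaA03g48610D exceeded 0.51 TPM in any library, with 1.58 TPM at most. For the other genes the absence of a called fall was thus fixed in advance. By limma on log2(TPM + 1) of the 12 libraries before 72 hai, 6 of 9 genes rose and 0 fell, counting genes with a log2 change over 1 whose adjusted p was under 0.05. The count of 0 falls is not read as a result. Of all 53233 genes tested, 18.8% rose and 14.1% fell, shares that include genes the rule did not hold low and against which the 9 genes are not read. The median log2 change was 1.83 over the 9 genes. All 9 passed the filter of 1 TPM in 3 libraries through their levels at 72 hai.

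The largest rise was that of BnaCnng51700D, by 2.94 on the log2 scale (SE 0.29, adjusted p = 5.84e-06). BnaC06g33470D rose by 2.47 (SE 0.52, adjusted p = 0.00209) and BnaA09g08470D by 2.46 (SE 0.30, adjusted p = 3.03e-05). The remaining 3 rises were 2.07 in BnaA03g17000D (adjusted p = 0.000141), 1.83 in BnaA01g28080D (adjusted p = 0.000109) and 1.40 in BnaC05g50540D (adjusted p = 0.00026). Since 1 TPM was added to every value, these changes understate those of faint genes. The fit takes 1 error per gene over the 12 libraries, and in most of these genes the 9 libraries to 12 hai lay at or near 0. The error thus understates the spread at 36 hai, which in BnaCnng51700D ran from 3.55 to 13.4 TPM. The p-values look firmer than 3 libraries at 36 hai allow.

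The other 3 genes were not called. BnaA08g04230D had a log2 difference of 0.65 (SE 0.22, adjusted p = 0.0249), which is short of the size required, BnaA03g48610D one of 0.52 (adjusted p = 0.0924) and BnaA02g32350D one of 0.30 (adjusted p = 0.0622). With 0.1 TPM added in place of 1, the calls were 8 of 9, as BnaA08g04230D (2.23, adjusted p = 0.0173) and BnaA02g32350D (1.48, adjusted p = 0.0322) then passed. Over 9 alternatives the count lay between 6 and 8. In 7 of 9 genes the lowest library at 36 hai lay above the highest at 12 hai, as in 26.2% of all genes tested, again with nothing read from that share. The exceptions were BnaA02g32350D and BnaA08g04230D, listed at 0 in C033 at both times.

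Between the dry seed and 12 hai the rule holds both levels low, and little difference could be found. The log2 difference was exactly 0 in 5 genes, positive in 2 and negative in 2, and the largest was that of BnaA09g08470D, at -0.51 (SE 0.30, adjusted p = 0.203). In the same limma fit 0 of 9 were called and 0 had an unadjusted p under 0.05. Of all genes tested 13.3% rose and 2.14% fell, and nothing is read from the difference to the late genes.

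Between accessions, the levels before 72 hai were held low by the rule in all 3, which leaves little room for a difference. With the 4 earlier times as replicates, limma called 0 of 9 genes in C129 against C033, 0 in C129 against C032 and 0 in C033 against C032. At an unadjusted p under 0.05 the counts were 1, 0 and 0. Of all genes tested 6.85%, 8.09% and 5.91% were called in either direction, and nothing is read from the late genes against these shares. As deposited, all 9 genes had positive differences in C129 against both other accessions, with medians of 0.27 against C033 and 0.32 against C032 on the log2 scale, beside 0.37 and 0.30 over all genes tested. After median-of-ratios scaling the medians over all genes were 0.01 and 0.02, and 2 of 9 late genes were negative in each contrast: BnaC06g33470D (-0.12) and BnaA03g48610D (-0.33) against C033, and BnaA02g32350D (-0.01) and BnaA03g48610D (-0.01) against C032. With 0.1 TPM added, BnaA01g28080D was called higher in C129 than in C033 (1.22, adjusted p = 0.0226) and in C032 (1.15, adjusted p = 0.0328).

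At single times there is 1 library for each accession and the order is a description. At 36 hai C129 was highest in 8 of 9 genes, the exception being BnaA03g48610D, where C032 was. C129 was also highest in 87.9% of the 1925 genes with at least 50 TPM at 72 hai and in 94.3% of the 263 genes that cleared 0, 2 and 12 hai, so the share in the late genes was near that background. At 72 hai C129 was highest in 7 of 9 genes, against 39.3% of the 1925 and 64.3% of the 263 genes. With median-of-ratios scaling C129 was highest at 72 hai in 7 of 9 genes, against 24.6% of the 1925 and 45.6% of the 263. After rescaling coding genes to equal totals C129 was highest in 8 of 9, against 41.6% and 65.4%. The lowest accession depended on scaling: C032 was lowest at 72 hai in 4 of 9 genes as deposited and in 8 of 9 under both other scalings. Of the 1925 genes C032 was lowest in 187 as deposited, 502 with median-of-ratios scaling and 318 with coding genes rescaled. Of the 263 genes it was lowest in 61, 115 and 91. Levels at 72 hai and their ratio to 36 hai chose the late genes, whereas the 1925 and the 263 genes did not have to meet that ratio. As C129 was highest at 36 hai in most genes, meeting the ratio in C129 favours a high level there at 72 hai. Nothing is thus read from the counts of highest or lowest accession at 72 hai against these backgrounds.

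**Figure D3:**
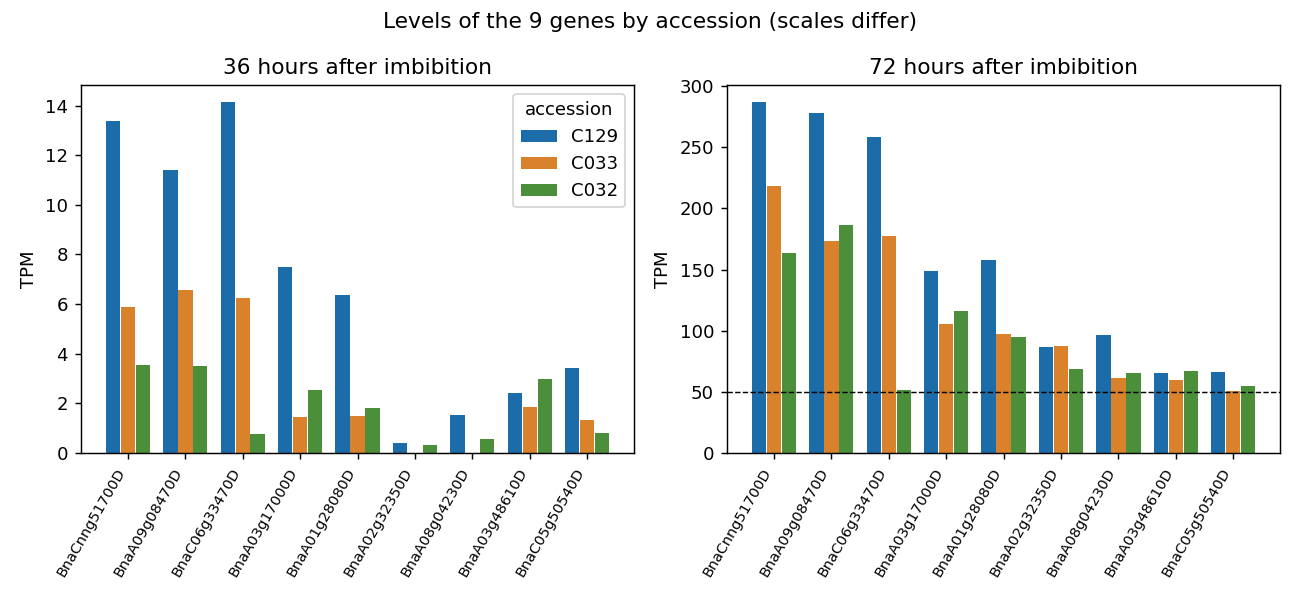
Bars give TPM of the 9 late genes in C129, C033 and C032 at 36 hai (left, to 14.1 TPM) and 72 hai (right, to 287 TPM), 1 library per bar on linear axes from 0 that differ in scale. The dashed line marks the 50 TPM of the rule, which BnaC05g50540D in C033 and BnaC06g33470D in C032 pass narrowly, and C129 is highest in 8 genes at 36 hai and in 7 at 72 hai.

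How many genes met the rule in 2 accessions but not in the other was described by applying the rule without each accession in turn. Without C032, 10 genes met the rule in C129 and C033, and 9 of them (90%) met it in C032 too. Without C033, 9 of 11 genes (81.8%) met it in C033. Without C129, 34 genes met it in C033 and C032, of which only 9 (26.5%) met it in C129. The 9 genes are by definition the late genes each time. The 3 shares thus differ only through the number of genes that met the rule in the other 2 accessions. In the accession left out, the rule was met by 0.787% of the 2921 genes with at least 50 TPM at 72 hai for C129, by 2.43% of 2220 for C033 and by 2.35% of 2977 for C032.

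The 25 genes that missed the rule in C129 did so in 20 cases because they stood above a sixteenth of their 72 hai level at 36 hai, and in 5 because they stayed under 50 TPM at 72 hai. Their median ratio of 72 over 36 hai in C129 was 9.12. The most abundant of them, BnaC07g50250D, already stood at 440 TPM at 36 hai and at 1263 TPM at 72 hai in C129. BnaA01g16440D stood at 141 and 993 TPM. At the other end BnaA04g06310D was listed at 0 in C129 at both times. These 3 genes were picked after their values were seen. The 20 genes thus met the ratio of 16 in C033 and C032 and missed it in C129 at 36 hai, a time at which C129 levels of most genes were higher in the deposited scaling. Some missed it narrowly, such as BnaA07g31590D at 15.8 times and BnaA09g22540D at 15.7 times. With coding genes rescaled the share met in C129 was 48.1%, with 9 of 14 misses at 36 hai, and with median-of-ratios scaling 41.2%, with 6 of 10. At a ratio of 32 in place of 16 it was 14.3% (2 of 14 genes).

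**Figure D4:**
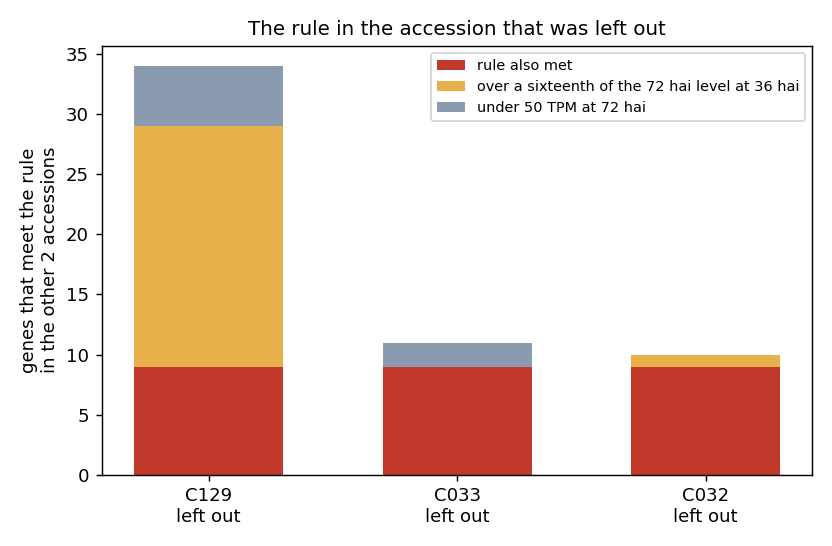
Stacked bars count the coding genes that meet the rule in the other 2 accessions, for each accession left out, split by whether the accession left out meets it as well (9 genes in each bar), stands above a sixteenth of its 72 hai level at 36 hai (20, 0 and 1 genes) or stays under 50 TPM at 72 hai (5, 2 and 0 genes). The bar of C129 holds 34 genes against 11 and 10.

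Just inside the rule were BnaC05g50540D (50.3 TPM in C033), BnaC06g33470D (51.5 TPM in C032) and BnaA03g48610D (59.8 TPM in C033). Just outside were BnaA07g31590D, which stood at 172 TPM in C129 and 15.8 times its level at 36 hai, BnaA09g22540D, at 141 TPM and 15.7 times, and BnaC04g14260D, which reached 47.1, 49.8 and 49.1 TPM in C129, C033 and C032. The limits cut through a continuous range of genes: with 25 TPM as the minimum 25 genes met the rule, and with a ratio of 8 in place of 16 the number was 27.

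In structure the late genes lay within the range of other abundant seedling genes. Their transcripts measured from 657 to 2163 bases with a median of 1413, against 1265 for the 1925 genes, and their median number of exons was 5 against 4. The A genome held 6 and the C genome 3 of them, against 48.1% and 51.1% of the 1925 genes. Since each lies on a sequence of its own, no distance between late genes could be measured.

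Their neighbours on the assembly did not share their levels. The 16 genes next to 8 of the late genes stayed at or below 22.7 TPM in every library, and BnaCnng51700D had no neighbour on its sequence. Only 1925 of all 101040 coding genes reached 50 TPM at 72 hai in all 3 accessions, so low neighbours are the common case and nothing is read from them. The share of all genes that were highest at 72 hai was not computed. BnaC06g33480D, next to BnaC06g33470D and 2267 bases away, was 1 of 4 that were highest at 72 hai in all accessions, at 1.0, 0.951 and 1.70 TPM in C129, C033 and C032. BnaA03g48600D ends 339 bases before BnaA03g48610D on the same strand. It stood at 3.53, 3.88 and 3.08 TPM at 36 hai, above BnaA03g48610D itself in each accession, and at 4.6, 3.20 and 4.13 TPM at 72 hai. These neighbours were named after their values were seen.

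Other genes of the seedling programme give the setting of the step from 36 to 72 hai, in which 17.1% of all genes tested rose and 4.82% fell by limma over the 15 libraries. Arabidopsis matches were at hand for 3060 genes, 120 of the 1925 abundant and 8 of the 263 genes that cleared 0, 2 and 12 hai. They came from a table of genes the study had listed as changing in these libraries, so that counts over them are not independent evidence. Of 111 such genes in lists of seedling functions, 72 passed the filter, of which 49 rose and 0 fell. Their median log2 change was 1.41, against 0.21 over all genes tested. All 111 listed genes match loci of a single Arabidopsis chromosome, so the lists do not survey the functions they are named for.

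Most of the listed photosynthesis genes rose in this step. Of 11 genes of the light reactions 10 rose, and 5 of the 11 are matches of LIL3:2, which in Arabidopsis encodes a light-harvesting-like protein needed for chlorophyll synthesis. BnaAnng07140D, the most abundant of these, went from 28.3, 9.18 and 10.5 TPM at 36 hai to 75.6, 55.6 and 78.8 TPM at 72 hai (log2 change 2.22, adjusted p = 0.000169). BnaC03g50210D, the PSAN match, rose by 3.65 on the log2 scale (adjusted p = 1.88e-08) and stayed under the 50 TPM of the rule. All 4 genes of chlorophyll and carotenoid synthesis, matches of Arabidopsis LUT2, a lycopene cyclase of lutein synthesis, rose as well, with a median of 2.20.

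Genes of cell walls, water transport and lipids were divided. In the list of peroxidases and genes of lignin and suberin, 6 of 9 tested genes rose. All 9 match peroxidase genes and 6 further genes were not tested, so no lignin or suberin gene of another kind is covered. The most abundant was BnaC02g42920D (1.05, adjusted p = 0.0365), which went from 197, 51.2 and 94.1 TPM to 331, 157 and 165 TPM. Its relative BnaA02g34060D, a match of the same Arabidopsis peroxidase gene, stood at 147, 59.0 and 139 TPM at 36 hai and at 89.1, 102 and 98.0 TPM at 72 hai, with no call. Transport genes rose in 6 of 7 cases, among them BnaA02g06180D, a match of the aquaporin gene PIP2;4 (1.82, adjusted p = 0.000279). Lipid transfer and wax genes rose in 6 of 8, flavonoid genes in 4 of 4, cell wall genes in 3 of 6, carbon fixation genes in 3 of 7, transcription factors in 2 of 2 and glucosinolate genes in 1 of 5. These lists hold copies matching only a few Arabidopsis genes each, so the counts do not describe whole pathways. The 3 carbon fixation genes that rose match AT5G61410 and the others AT5G64290. Most of the glucosinolate genes match AT5G60890. In the list named hormone response 4 of 5 rose, but all 4 match 1 Arabidopsis gene, AT5G48850, whose place in that list was not checked. The fifth, a match of AT5G50760, was not called (0.76), so nothing is read about hormone response. Defence genes and oleosins were called in 0 of 2 each, and the oleosins stood at no more than 2.01 TPM by 36 hai. The 2 defence genes match 1 Arabidopsis gene, AT5G64120.

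Among the 8 matched genes that cleared 0, 2 and 12 hai but not 36 hai were genes of known function. BnaA03g11990D, a match of the Arabidopsis O-methyltransferase gene OMT1, was listed at 0 at 0 and 12 hai in C129 and C033. It went from 20.4, 6.96 and 9.57 TPM at 36 hai to 142, 65.8 and 105 TPM at 72 hai in C129, C033 and C032, the largest step of the 8 genes in each accession, though short of 16-fold. It was picked after its values were seen. BnaC07g27160D, a match of the Arabidopsis wall enzyme gene BXL1, was listed at 0 at 0 and 12 hai in all 3 accessions. It had reached 69.6, 18.7 and 45.5 TPM by 36 hai and stood at 170, 50.6 and 107 TPM at 72 hai.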

How the data were processed

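RNA levels were analysed in 15 B. napus libraries, 1 for each of 3 accessions at 5 time points. The authors read TruSeq libraries as paired ends of 100 bases, mapped them with HISAT and quantified genes with StringTie, whose versions are not given in the sources used here. The deposited coverage values give read depth averaged over a gene, and the deposited TPM values follow from that coverage and a library total over coding and non-coding genes. TPM followed coverage in all but at most 2 coding genes of a library, within 0.1%. Read equivalents are coverage times gene length over read length. Near-identical copies of the A and C genomes can share reads, which was not examined.

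The members and lists were chosen with earlier results of these data known. Genes named were the 9 members, those nearest the limits of the rule and the most abundant of each list, besides 3 markers and those said to be picked later. Changes were tested with limma 3.58.1 (trend, robust) in R 4.3.3 on log2(TPM + 1), keeping genes that reached 1 TPM in 3 or more of the 15 libraries, with time and accession as terms, Benjamini-Hochberg adjustment and 6 (12 libraries) or 8 (15 libraries) residual degrees of freedom. The p-values measure the spread between accessions, or between times, not between replicate seeds. On simulated data of the 12 libraries 80% of 100 genes changed by 1.5 on the log2 scale and 99% of 100 changed by 3 were recovered, with 7 false calls among 53233 genes. Alternatives were other pseudocounts, filters, scalings, limits and models, and each accession or time left out. Other steps used Python 3.11.15, numpy 2.4.6, pandas 2.3.3, scipy 1.17.1 and matplotlib 3.10.9.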

Additional observations from a re-analysis of the deposited data

Results flagged for a closer look

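BnaA03g48610D moved in opposite directions between dry seed and 12 hai. In log2(TPM + 1) the difference was 0.60 in C032, -0.14 in C129 and -0.28 in C033, so that C032 differed from C129 by 0.74 and from C033 by 0.88. With 1 library per accession and time, this difference was not tested.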

How the results depend on the processing

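The number of genes depended on the limits of the rule: 25 genes met it at 25 TPM, 3 at 100 TPM, 27 at a ratio of 8 and 2 at a ratio of 32, and between 10 and 34 with an accession left out. With median-of-ratios scaling 7 genes met it, of which 5 belong to the 9, and BnaA03g48610D, BnaA08g04230D, BnaC05g50540D and BnaC06g33470D dropped out. With coding genes rescaled 13 met it, all 9 included. The share also met in the accession left out became 100% for C033 and for C032 at a ratio of 32, where 2 of 2 genes met it. For C129 it became 14.3% at a ratio of 32 and 48.1% with coding genes rescaled, a setting chosen after seeing the data. With 0.1 TPM added, 1 gene was called higher in C129 than in C033 and 1 than in C032. Among the listed genes, calls that fell from 36 to 72 hai numbered 2 with 0.1 TPM added, 1 with coding genes rescaled and 0 to 1 with an accession left out. The cause of these differences was not tested. Of 405 values for single genes 21 had the opposite sign to the main one, all of them of differences that were not called and 0 from 12 to 36 hai. Otherwise 121 of the 134 values for whole comparisons kept within 1.5 times the main one or within its interval, and 401 of the single-gene values kept their call or lack of one and 4 gained a call. The highest adjusted p over 9 alternatives was 0.0307 among the 6 genes called from 12 to 36 hai. Depth limits values under 1 TPM, which rest on few reads. The labels give no replicate numbers, and accession was a term of the fits over time. With time as the only term the count from 12 to 36 hai was 6 of 9 again. The search for promoter motifs was not run because no promoter sequences were used here.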
